A study of Rattus norvegicus with 12 samples.

Results

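Choroid plexus markers are 10 genes of the epithelium that secretes cerebrospinal fluid (Ttr, Kl, Folr1, Clic6, Kcnj13, Slc4a5, Otx2, Aqp1, Enpp2 and Prlr), and they were read here in hippocampal RNA of blast-exposed rats. The members were taken by gene symbol from the deposited table of counts, in which 10 of the 10 were found among 17494 genes. All 10 had enough counts to be tested. The libraries came from 12 adult male Long Evans rats of wild-type genotype, which all received 3 blasts, 1 per day, at 10 weeks of age and were sacrificed 29 weeks later. From the second week after blast until sacrifice, 6 of them (blast-boldine) ate chow with boldine at 500 mg/kg, and 6 (blast-controls) ate the same chow without it. Boldine is an alkaloid of the Chilean boldo tree that blocks connexin hemichannels. Rats not exposed to blast are not among the libraries, so the effect of blast itself cannot be read from these data. The sample labels call the tissue brain and the study's methods call it hippocampus. There was 1 library per rat, and rats are named by their number.

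The choroid plexus is a fold of vascular tissue covered by a single layer of epithelial cells that hangs in the ventricles of the brain. Its epithelium secretes cerebrospinal fluid by moving sodium, bicarbonate, chloride and water. It also carries vitamins from blood into that fluid and secretes hormone carriers into it. In the lateral ventricle it lies beside the hippocampus, but it is not part of it. Most of the 10 genes are known for their high level in this epithelium, and Enpp2 is also used by oligodendrocytes. Homeodomain factors of the OTX family are needed for its development.

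The library of blast-control rat 6 was very shallow, with 74008 counts on genes, while the totals of the other 11 lay between 10148474 and 40850106. Levels are given in CPM, for which counts were scaled by each library's total and its TMM factor. A single count was worth 15.8 CPM in rat 6. A gene was called detected from 3 counts, a floor of 47.5 CPM in rat 6 and of 0.0658 to 0.307 CPM in the 11 full-depth libraries. These floors cover counting error only. The suffixes of the library names repeat from 1 to 6, as a pair of sequencing sheets would give, and the sheets were inferred from them and from the counts. No label names a sheet or a run, so a sheet is here an inferred set of libraries. Sheet A then held rats 1, 7 and 9 (blast-controls) and 20, 32 and 35 (blast-boldine), and sheet B held rats 4, 5 and 6 and rats 12, 17 and 19. The sheets accounted for 94.8% of the first principal component of the full-depth libraries. This assignment was chosen among 4 because it gave the largest such share, so the value is no separate support for the sheets.

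The marker levels fell into 2 sets of libraries that crossed both the treatments and the sheets. Ttr encodes transthyretin, the carrier of thyroid hormone and of retinol-binding protein that the choroid plexus secretes. It was highest in blast-boldine rat 12 with 893.3 CPM, blast-control rat 7 with 880.5 CPM, blast-boldine rats 32 and 17 with 791.1 and 644.6 CPM, and blast-control rat 1 with 494.2 CPM. The next library, of blast-boldine rat 35, had 38.9 CPM, 12.7 times less than rat 1. Blast-boldine rat 20 had 17 CPM, blast-controls 4, 5 and 9 had 11.55, 11.3 and 9.26 CPM, and blast-boldine rat 19 had 4.39 CPM. In counts, the 5 libraries with most Ttr held 6499 to 22517, and the other 6 of full depth held 57 to 781. The 5 libraries were 3 of the 6 blast-boldine rats and 2 of the 5 full-depth blast-controls, with 3 on sheet A and 2 on sheet B. Summed over the 10 markers, the counts made up 0.137% to 0.283% of these 5 libraries and 0.0142% to 0.0397% of the other 6. In bulk RNA, fewer epithelial cells in the sample and less of each RNA per cell cannot be told apart.

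**Figure D1:**
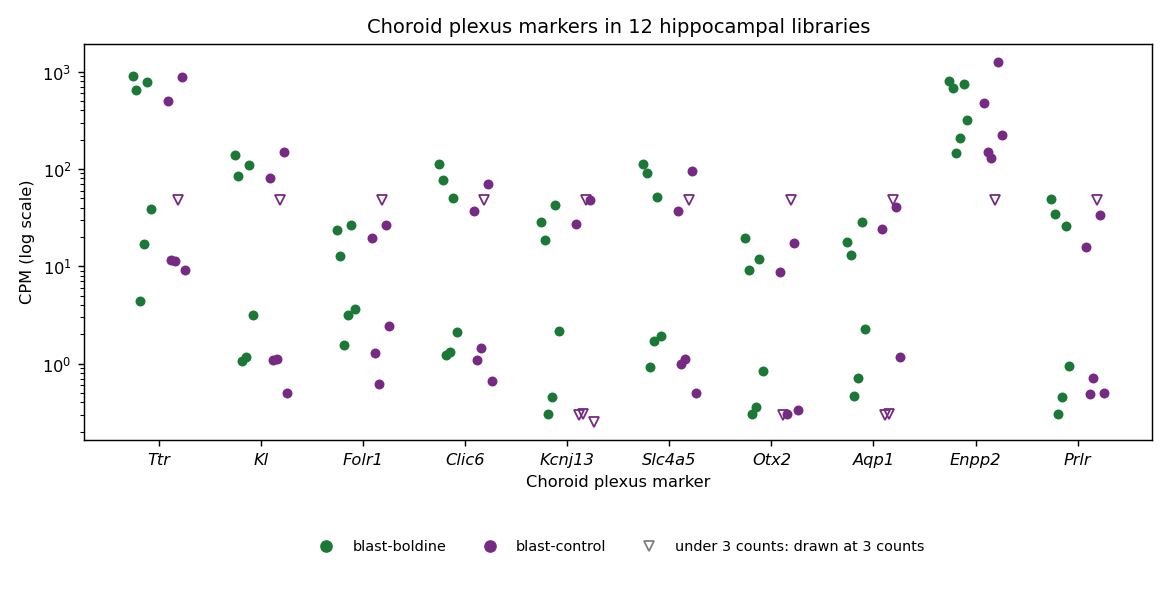
Level of each marker in CPM (log axis) for the 12 libraries, with blast-boldine in green and blast-control in purple. Open triangles stand for libraries with under 3 counts, drawn at the CPM of 3 counts, and the highest triangle of each gene is rat 6. In each group some rats lie high and others low, as for Ttr with 893.3 and 4.39 CPM among blast-boldine rats.

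Genes of secreted and surface proteins of the epithelium were high in the same 5 rats, though their order within the high and the low rats was not that of Ttr. Kl encodes klotho, a co-receptor for fibroblast growth factor 23 that is also shed into the fluid, and its level was 1.08 CPM in the lowest, 44.1 in the median and 140.9 in the highest blast-boldine rat. In the full-depth blast-controls Kl was 81.5 CPM in rat 1 and 150.9 in rat 7, and 1.09, 1.13 and 0.5 CPM in rats 4, 5 and 9. The groups overlapped, and each held both high and low rats. Folr1, the folate receptor that passes folate across this epithelium, had a lowest, median and highest level of 1.54, 8.16 and 26.3 CPM in blast-boldine rats. In blast-controls 1 and 7 Folr1 stood at 19.3 and 26.8 CPM, and in rats 4, 5 and 9 at 1.28, 0.614 and 2.42 CPM. Prlr, the prolactin receptor, ran from 0.308 CPM through a median of 13.6 to 49.2 CPM in blast-boldine rats. Its levels in blast-controls were 15.8 and 33.6 CPM in rats 1 and 7 against 0.494, 0.717 and 0.5 CPM in rats 4, 5 and 9. For all 3 genes the rats with high levels were again 12, 17 and 32 with boldine and 1 and 7 without it.

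The channels and transporters of fluid secretion divided the rats in the same way. Kcnj13 encodes an inwardly rectifying potassium channel of the epithelium's apical face, and blast-boldine rats 12, 17 and 32 had 490, 188 and 923 counts of it against 4, 10 and 44 in rats 19, 20 and 35. In blast-controls 1 and 7 it had 1232 and 923 counts, and in rats 4, 5 and 9 it had 1, 0 and 1 counts, which is below the floor. In CPM, Kcnj13 lay between 18.65 and 48.4 in the 5 libraries with most Ttr and reached at most 2.19 elsewhere. Slc4a5, a sodium bicarbonate cotransporter, had 37.2 and 95.7 CPM in blast-controls 1 and 7 and between 0.5 and 1.13 CPM in rats 4, 5 and 9. Among blast-boldine rats Slc4a5 ran from 0.923 through a median of 26.5 to 113.1 CPM. Clic6, of the chloride intracellular channel family, had 37.0 and 70.9 CPM in blast-controls 1 and 7 and 0.667 to 1.43 CPM in the 3 others of full depth. In blast-boldine rats Clic6 ran from 1.23 to 113.8 CPM with a median of 26.05. Aqp1, the water channel of the apical membrane, was not detected in rats 4 and 5 with 2 and 0 counts, and it reached 1.17 CPM in rat 9 and 24.3 and 40.8 CPM in rats 1 and 7. Its blast-boldine levels ran from 0.462 CPM to 28.5 CPM with a median of 7.64. Each of these 4 genes was high in the same rats and low in the same rats.

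Otx2, the transcription factor, had the lowest median level per kilobase of exon after Prlr. Compared within each rat, Otx2 lay above Prlr in only 2 of the 11 full-depth libraries and below it in 9. It had 402 and 331 counts in blast-controls 1 and 7, against 0, 3 and 4 counts in rats 4, 5 and 9. In blast-boldine rats it had 337, 92 and 260 counts in rats 12, 17 and 32, against 4, 8 and 17 in rats 19, 20 and 35. Enpp2, which encodes autotaxin, the enzyme that makes lysophosphatidic acid, was the exception in size. It was abundant in every full-depth library, from 130.6 CPM in blast-control rat 5 to 1258 CPM in blast-control rat 7. Its levels in rats 12, 17 and 32 were 801.7, 678.1 and 745.5 CPM, in rats 19, 20 and 35 they were 146.7, 208.7 and 318.0 CPM, and in blast-controls 1, 4 and 9 they were 481.3, 149.3 and 225.5 CPM. Enpp2 also divided the libraries at the same place, but by a small step.

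Per kilobase of exon, the median level over the 11 full-depth libraries was highest for Enpp2 with 101 CPM per kilobase and next for Ttr with 55.5. Folr1 followed with 2.84 and Kcnj13 with 1.74, then Clic6 with 0.961, Kl with 0.904 and Aqp1 with 0.872. Slc4a5 had 0.538, Otx2 0.362 and Prlr 0.332 CPM per kilobase. Compared within each rat, Ttr lay above Folr1 in 11 of 11 rats, Kl above Aqp1 in 10 and Slc4a5 above Otx2 in 10. Enpp2 lay above Ttr, and Folr1 above Kcnj13, in 6 of 11 rats. These 6 were the same for both pairs, and in the 5 libraries with most Ttr both orders were reversed. Kcnj13 lay above Clic6 in 4 of 11 rats, so the order of that pair was mixed. Clic6 lay above Kl in 8 of 11 rats, while Aqp1 lay above Slc4a5 and Otx2 above Prlr in only 2 of 11 each, against the order of their medians. Enpp2 ran from 41.6 to 401, Ttr from 6.27 to 1276 and Folr1 from 0.480 to 20.9 CPM per kilobase.

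Ttr lies on chromosome 18 at 11943794 to 11951007 of the rat genome build mRatBN7.2, on the plus strand, and its exons cover 700 bases. Kl lies on chromosome 12, Folr1 on chromosome 1, Clic6 on chromosome 11, Kcnj13 on chromosome 9, Otx2 on chromosome 15, Enpp2 on chromosome 7 and Prlr on chromosome 2. Slc4a5 and Aqp1 are on chromosome 4, at 115725592 to 115808983 and at 84482512 to 84494690. The 10 genes thus lie on 9 chromosomes, and none shares exon bases, on either strand, with another gene of the deposited table.

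Promoters were read as a description only, and they do not bear on why the 10 genes rose and fell over rats together. RefSeq promoters ran from 250 bases before to 50 bases after the annotated start on the build GRCr8. They were matched for 6 of the 10 genes (Ttr, Kl, Kcnj13, Slc4a5, Aqp1 and Prlr), with 7 promoters in all. The core motif of OTX factors, TAATCC on either strand, stood in 0 of these 7 and in 7.17% of all 33469 promoters of the same length. With 7 promoters, a count of 0 cannot be set apart from that share. Among 19 promoters of further choroid plexus genes it stood in 2, those of Mfrp and Ace. TATAAA on either strand, a motif chosen after the promoters had been read, stood in 2 of the 7, those of Kcnj13 and Aqp1, in 2 of the 19 and in 14.2% of all. The motif began 46 bases before the start of Kcnj13 and 30 bases before that of Aqp1. The Kcnj13 promoter is at chr9:95518937-95519236 on the minus strand, that of Aqp1 at chr4:85812534-85812833 on the plus strand and that of Mfrp at chr8:53342284-53342583 on the plus strand. They are shown 5′ to 3′ as the promoters of members and of a like gene that hold a searched motif. Capitals mark TATAAA in the first 2 and, in Mfrp, the OTX core read from the opposite strand, 99 bases before the start.
Kcnj13: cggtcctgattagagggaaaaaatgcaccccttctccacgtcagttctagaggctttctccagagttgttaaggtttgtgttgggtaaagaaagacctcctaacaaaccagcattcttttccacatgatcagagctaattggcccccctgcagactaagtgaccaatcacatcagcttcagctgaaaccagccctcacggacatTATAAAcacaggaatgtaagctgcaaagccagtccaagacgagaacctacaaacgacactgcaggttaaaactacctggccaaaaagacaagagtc
Aqp1: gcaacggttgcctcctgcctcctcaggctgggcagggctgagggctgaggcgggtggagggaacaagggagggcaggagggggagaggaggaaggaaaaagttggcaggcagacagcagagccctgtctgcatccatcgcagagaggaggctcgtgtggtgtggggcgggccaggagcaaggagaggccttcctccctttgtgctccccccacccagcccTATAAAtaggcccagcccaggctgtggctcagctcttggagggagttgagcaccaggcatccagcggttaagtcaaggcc
Mfrp: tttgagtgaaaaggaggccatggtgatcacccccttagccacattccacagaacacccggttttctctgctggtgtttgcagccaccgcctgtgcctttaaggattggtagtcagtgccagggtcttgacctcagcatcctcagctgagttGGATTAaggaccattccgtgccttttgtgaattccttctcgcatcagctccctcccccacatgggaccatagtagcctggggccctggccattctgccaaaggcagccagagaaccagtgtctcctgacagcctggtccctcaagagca
These matches are descriptions of the letters in the window.

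Whether the markers varied together was asked next, gene by gene over the 11 full-depth libraries. For every one of the 10 markers, the 5 libraries with most Ttr lay above the other 6, which for Ttr itself follows from the choice of those libraries. Among all 12325 genes tested, 112 (0.909%) divided the same way, the markers included. Outside the 5 libraries and rat 35, Kcnj13 reached at most 0.451 CPM and Otx2 at most 0.361 CPM, both in rat 20. They had enough counts to be tested only through the 5 libraries and rat 35, so their division is not independent of that filter. The ratio of the lowest of the 5 to the highest of the other 6 was 25.6 for Kl, 19.2 for Slc4a5, 17.3 for Clic6, 16.7 for Prlr, 10.4 for Otx2 and 8.52 for Kcnj13. It was 5.68 for Aqp1, 3.50 for Folr1 and 1.51 for Enpp2. The highest of the other 6 was rat 35 for each of the 10 genes, which was thus intermediate, with 3.18 CPM of Kl and 2.29 CPM of Aqp1. A ratio of at least 3 was found for 23 of the 12325 genes (0.187%), and 9 of these were markers. Of the other 14, 7 were in the list of further choroid plexus genes and 7 were in none of the lists, among them Abca4 with a ratio of 9.22, Col8a1 with 7.14 and Pla2g5 with 6.91.

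**Figure D2:**
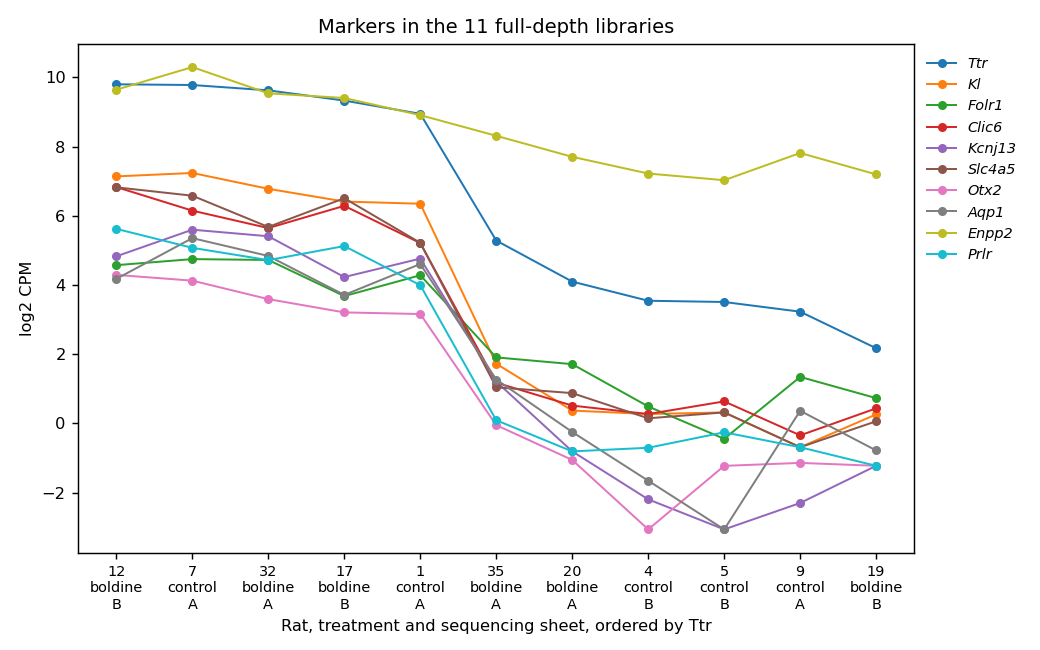
log2 CPM (with a prior count of 2) of the 10 markers in the 11 full-depth libraries, ordered from left to right by Ttr, with the rat, its treatment and its sheet under each position. Each line is a gene, and 9 of the 10 drop by a ratio of 3.50 or more between the lowest of the first 5 rats and the highest of the last 6, while Enpp2 drops by a ratio of 1.51.

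These genes were among the most variable in the table. The SD of log2 CPM over the 11 rats was 3.51 for Kcnj13, the largest of the 12325 genes, 3.40 for Kl, the second, and 3.15 for Ttr, the fifth. It was 3.13 for Slc4a5, 2.96 for Aqp1 and for Clic6, 2.92 for Prlr, 2.71 for Otx2 and 1.92 for Folr1, and all of these were among the 100 most variable genes. Enpp2 had an SD of 1.15 and stood at place 147, and the median of all genes was 0.34. The highest library held 302 times the CPM of the lowest in which Kl was detected, 226 times for Slc4a5, 204 times for Ttr, 171 times for Clic6 and 160 times for Prlr. The same quotient was 157 for Kcnj13, 88.4 for Aqp1, 63.4 for Otx2, 43.6 for Folr1 and 9.63 for Enpp2.

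After removal of the sheet means, log2 CPM correlated with that of Ttr over the 11 rats with r between 0.952 for Aqp1 and 0.993 for Prlr. The median r over all pairs of members was 0.973. These values describe a division of the libraries into 2 clusters, so no p is attached to the pooled r. Ranked among all 12325 genes by their r with Ttr, Prlr was at place 3, Clic6 at 5, Slc4a5 at 6, Kl at 9, Kcnj13 at 23, Folr1 at 27, Otx2 at 28, Enpp2 at 33 and Aqp1 at 39. Within the 6 low full-depth libraries, where 8 of the 10 markers had at most 73 counts, Kl and Slc4a5 followed Ttr most closely in rank, each with a Spearman's rho of 0.886 (exact two-sided permutation p = 0.0333, 0.15 after Benjamini-Hochberg adjustment over 9 members). Their Pearson's r was 0.717 for Kl (exact permutation p = 0.0694, adjusted 0.256) and 0.705 for Slc4a5 (exact permutation p = 0.114, adjusted 0.256). Prlr had r = 0.834 (exact permutation p = 0.05, adjusted 0.256) and rho = 0.486 (exact permutation p = 0.356, adjusted 0.400), and its r was -0.36 once rats 19 and 35, farthest from the median of Ttr, were left out. Without the same pair of rats r was 0.72 for Kl, 0.93 for Slc4a5 and 0.10 for Enpp2. The 5 other members had r between 0.429 and 0.641. None of the 9 passed 0.05 after adjustment by either measure, so a common variation was not detectable within these 6 libraries at their counts. The 5 high libraries are too few for a correlation.

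The ratio of each marker to Ttr was taken with both per kilobase of exon over the 5 libraries with most Ttr. The level of Ttr itself ranged 1.81-fold over these 5, and the levels of the other markers ranged from 1.85-fold for Kl to 3.14-fold for Aqp1. Kl was 2.63% to 3.41% of Ttr, a 1.3-fold range, Otx2 was 0.424% to 0.652%, a 1.54-fold range, and Enpp2 was 20.01% to 31.9%, a 1.59-fold range. The ranges of these 3 genes overlapped between the sheets. For the other 6 of the 9 markers the 3 libraries of sheet A and the 2 of sheet B did not overlap, and neither did they for 38.8% of the 12324 other genes tested, these markers included. Relative to Ttr, sheet A was higher for Kcnj13, with 2.98% to 3.06% against 1.61% to 1.77%. It was also higher for Aqp1, with 0.962% to 1.31% against 0.537% to 0.538%, and for Folr1, with 1.66% to 2.14% against 1.08% to 1.45%. Sheet A was lower for Clic6, with 1.99% to 2.53% against 3.81% to 4.01%, for Slc4a5, with 1.25% to 2.11% against 2.46% to 2.74%, and for Prlr, with 0.787% to 0.938% against 1.33% to 1.35%. Over the 5 libraries the widest range of a ratio was 2.44-fold, that of Aqp1. Rats 12 and 17 of sheet B were both fed boldine, as was rat 32 of sheet A.

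**Figure D3:**
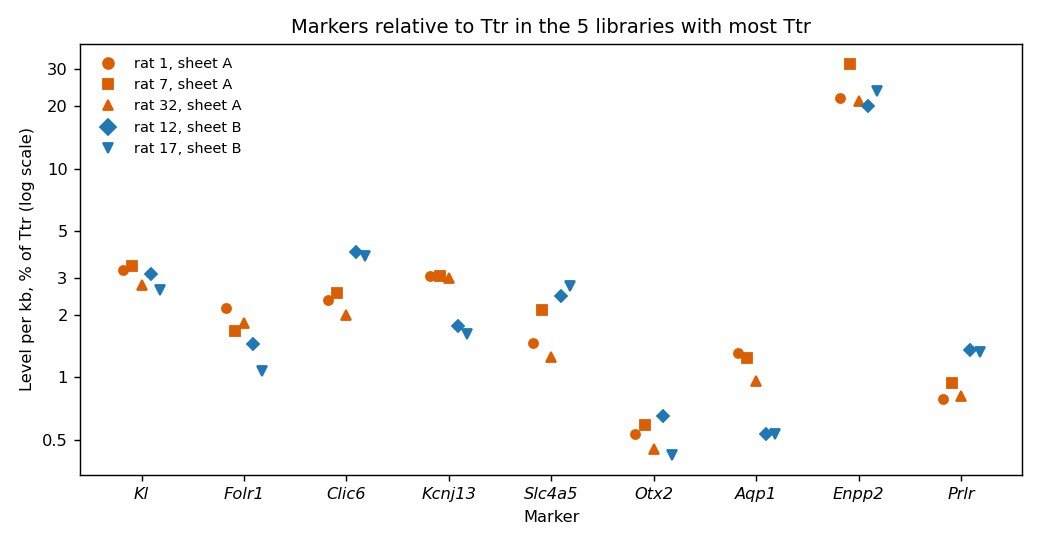
Level of each marker per kilobase of exon as a percentage of that of Ttr (log axis) in the 5 libraries with most Ttr. Orange marks sheet A and blue sheet B, and each shape is a rat. Points of a gene lie within 2.44-fold of each other, and Kcnj13, Aqp1 and Folr1 lie higher on sheet A while Clic6, Slc4a5 and Prlr lie higher on sheet B.

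In the other 6 full-depth libraries the ratio to Ttr was computed where a marker had at least 10 counts. Enpp2 was 183% to 746% of Ttr per kilobase in all 6, so it stayed abundant where Ttr was scarce. Folr1 was 5.12% to 19.2% of Ttr in the 5 libraries with enough counts, above its 1.08% to 2.14% in the high libraries. In 5 of the 6, all but rat 9, Kl was 1.37% to 4.88%, Slc4a5 0.970% to 4.09% and Clic6 1.73% to 8.83%, and each of these 3 ranges includes that of the high libraries. Over all 11 libraries the SD of the log2 ratio to Ttr was 0.57 for Prlr, 0.59 for Kl, 0.60 for Slc4a5 and 0.66 for Clic6. It was 0.90 for Otx2, 0.91 for Kcnj13, 1.12 for Aqp1, 1.45 for Folr1 and 2.08 for Enpp2.

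Rat 6 had 0 counts of 8 markers, 1 count of Prlr and 2 of Enpp2. At the CPM of the lowest of the 5 high libraries, its depth would have given 31.2 counts of Ttr, 30.4 of Enpp2 and 5.14 of Kl, and under 2.5 counts of each of the other 7. Its 0 counts of Ttr and 2 of Enpp2 thus lay below the 5 high libraries. At the level of rat 35, the highest low library, the same depth would have given 2.45 counts of Ttr and 20.1 of Enpp2. The 2 counts of Enpp2 in rat 6 thus lay below rat 35 as well. From Ttr, the place of rat 6 among the low libraries could not be read.

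A further list of 20 genes known from choroid plexus epithelium was read in the same way, and 16 of them passed the filter on low counts. In 13 of the 16 the same 5 libraries lay above the other 6, against 0.909% of all genes tested. Tmem72, a membrane protein of this epithelium, had at least 29.3 CPM in the 5 and at most 1.04 CPM in the 6, a ratio of 28.1. The ratio was 21.1 for the organic anion transporter Slco1a5, 20.2 for the tight junction protein Cldn2 and 18.97 for Mfrp. It was 9.66 for coagulation factor F5, 5.51 for the potassium channel subunit Kcne2 and 3.93 for the angiotensin-converting enzyme Ace. The other 6 of the 13 had ratios from 1.09 for Cldn1 to 1.89 for Igfbp2. Ca12, Trpm3 and Slc22a8 did not divide at that place. Of the 4 genes that did not pass the filter, Sostdc1, a secreted inhibitor of Wnt and BMP signals, divided with a ratio of 17.1, Lmx1a with 7.65 and Steap1 with 3.30, and Cldn3 did not.

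The 10 genes outside the markers whose log2 CPM was most like that of Ttr, by Pearson's r over the 11 libraries after removal of sheet means, were C1qtnf3 (r = 0.995), Slco1a5 (0.993), Mfrp (0.990), Cdh3, F5, Mdk, Tmem72, Cldn2, Eps8l2 and Rbm47 (0.981). Of these 10, 5 are in the further list. Cdh3 encodes P-cadherin and Mdk the growth factor midkine. These points share the libraries and the same division into high and low rats, so the values are a description.

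Lists for the tissues and cells around the choroid plexus did not divide the libraries in this way. Over all genes tested, 0.909% divided them so. The summed level of the 10 markers ranged 17.8-fold over the 11 libraries and that of the further list 5.92-fold, and for both the same 5 libraries had the largest sums. Genes of ion and water transport that other brain cells also use, such as Slc12a2, ranged 1.36-fold in sum, and 2 of the 10 (Slc4a2 and Ca14) divided the libraries like Ttr, with ratios of 1.45 and 1.32. Of 7 genes of thyroid hormone and retinol carriage that passed the filter, 1 did, the retinol carrier receptor Stra6 with a ratio of 2.90. Of 8 genes of ependymal motile cilia, from the cells that line the ventricle, 0 divided so, and their sum was 41.4 to 87.4 CPM. Of 10 genes of meningeal and stromal fibroblasts 1 did (Fmod, ratio 1.43). None did among 8 genes of endothelium, 8 of oligodendrocytes, 6 of astrocytes, 6 of neurons, 6 of hippocampal pyramidal and granule neurons, 6 of microglia, 5 of blood cells and 6 of thalamus and habenula. Sums over hippocampal neuron genes lay between 982.6 and 1497 CPM in the full-depth libraries. Markers of the tissue named in the study's methods were thus present in every full-depth library. Some sums separated the inferred sheets instead. Endothelium genes summed to 125.4 to 186.3 CPM on sheet A and 320.8 to 432.8 CPM on sheet B without rat 6. For microglia the sums were 310.8 to 353.1 CPM and 132.0 to 216.0 CPM, while those of oligodendrocytes overlapped. Whether sequencing or tissue sets the sheets apart was not tested.

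**Figure D4:**
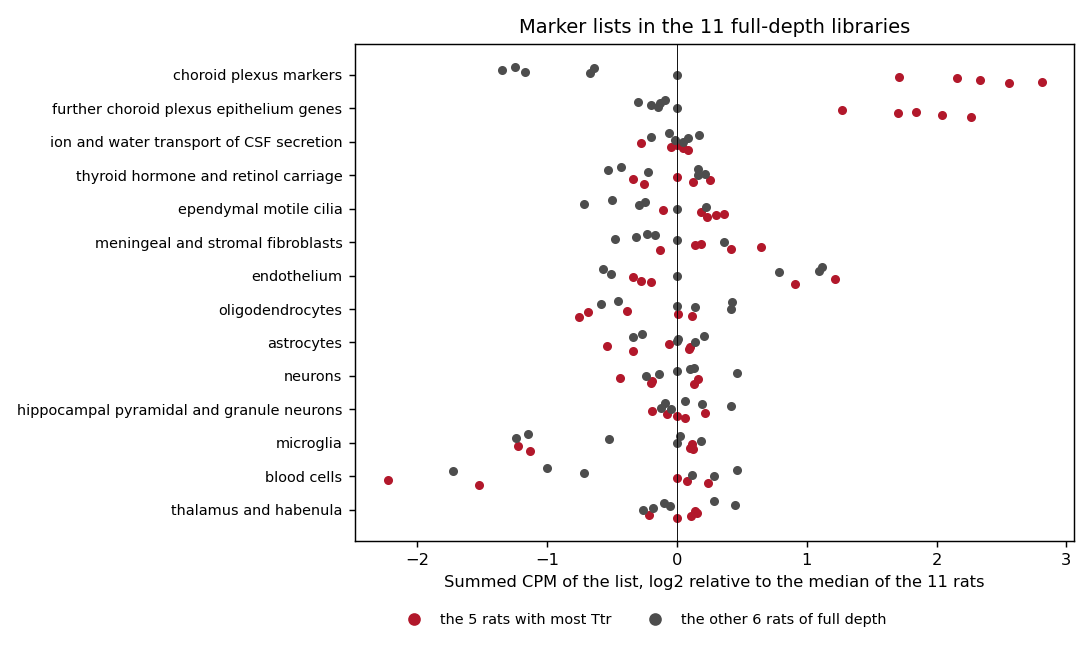
Summed CPM of each list in the 11 full-depth libraries, as log2 relative to the median library, with the 5 libraries of most Ttr in red and the other 6 in grey. The red points stand apart from the grey ones for the choroid plexus markers, whose sum ranges 17.8-fold, and for the further choroid plexus genes, whose sum ranges 5.92-fold, and they mix with them in the other 12 lists.

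The comparison of blast-boldine with blast-controls asks whether boldine changed these genes in rats exposed to blast. No marker passed the test. In edgeR's quasi-likelihood test over 12325 genes, 0 of the 10 had an unadjusted p under 0.05, against 1.07% of all genes, and the adjusted p was 1 for each. Without rat 6 the count was again 0 of 10, against 1.4% of all genes, and in DESeq2 it was 0 of 10, against 0.542%. It was also 0 of 10 in limma-voom, against 0.933%, and in edgeR with sheet as a covariate, against 3.85%, or 5.35% without rat 6. The log2 fold change of blast-boldine over blast-control was 0.67 (SE 1.35) for Ttr, 0.33 (SE 1.40) for Kl, 0.22 (SE 0.90) for Folr1 and 0.82 (SE 1.27) for Prlr. For the channels and transporters it was 0.90 (SE 1.29) for Clic6, 0.70 (SE 1.34) for Slc4a5, 0.03 (SE 1.35) for Kcnj13 and -0.34 (SE 1.20) for Aqp1. It was 0.34 (SE 1.16) for Otx2 and 0.29 (SE 0.65) for Enpp2. Thus 9 of 10 lay above 0, as did 51.3% of all genes, and the median was 0.33 against 0.0046 for all genes. The 10 values come from the same libraries and move together, so they are not 10 separate measurements. Without rat 6 the value was 0.49 for Ttr, 0.86 for Clic6 and -0.37 for Aqp1, Kcnj13 went to -0.005, and the median was 0.29, with 8 of 10 above 0 against 49.7% of all genes. Single rats moved the median further, to 1.42 without blast-control rat 7 and to -0.0065 without blast-boldine rat 12.

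The SE of these fold changes was 0.65 to 1.40 with a median of 1.28, while the median over all genes was 0.23. Differences between the treatments of the size seen here were therefore well inside the spread between rats. The mean level of Ttr was 398.2 ± 421.8 CPM (SD, n = 6) with boldine and 234.5 ± 371.5 CPM (SD, n = 6) without it, or 281.4 ± 395.0 CPM (SD, n = 5) without rat 6. Kl averaged 56.9 ± 62.9 CPM (SD, n = 6) with boldine and 47.0 ± 67.8 CPM (SD, n = 5) in full-depth blast-controls. By the exact two-sided permutation test of mean log2 CPM, over 924 assignments of the rats, p was 0.305 for Ttr and lay between 0.245 for Folr1 and 0.695 for Prlr. Without rat 6, over 462 assignments, the exact p was 0.665 for Ttr and lay between 0.416 for Kcnj13 and 0.682 for Prlr.

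**Figure D5:**
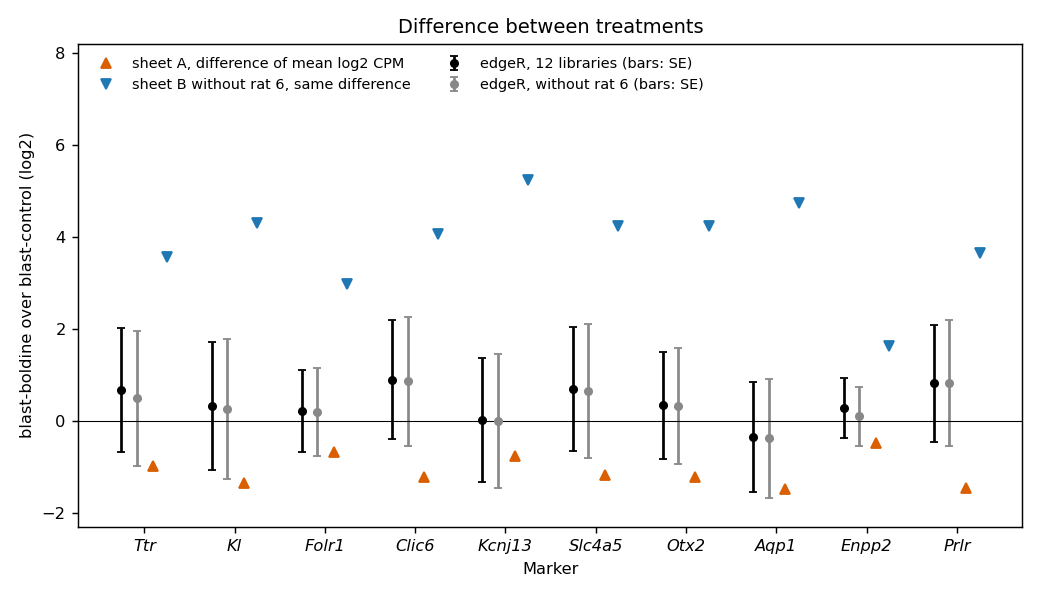
log2 fold change of blast-boldine over blast-control for each marker from edgeR with 12 libraries (black) and without rat 6 (grey), with bars of 1 SE, and the difference of mean log2 CPM within sheet A (orange) and within sheet B without rat 6 (blue). The black points lie between -0.34 and 0.90, the orange ones are all below 0 and the blue ones all above it.

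Within the sheets the differences pointed opposite ways. On sheet A, with 3 rats in each group, mean log2 CPM was lower with boldine for all 10 markers, with differences of -0.98 for Ttr, -1.49 for Aqp1, the largest, and -0.49 for Enpp2, the smallest. On sheet B, with 3 blast-boldine rats and blast-controls 4 and 5, it was higher for all 10, with differences of 3.58 for Ttr, 5.24 for Kcnj13, the largest, and 1.62 for Enpp2, the smallest. This follows the place of the high libraries, which were blast-controls 1 and 7 and blast-boldine rat 32 on sheet A and blast-boldine rats 12 and 17 on sheet B. A treatment-by-sheet term in edgeR without rat 6, added after the data were seen, was 2.60 for Enpp2 to 8.90 for Kcnj13 on the log2 scale. It had an unadjusted p between 0.0279 and 0.0562, under 0.05 for 9 of 10 markers and for 5.64% of all genes, and the adjusted p in edgeR was 0.881 for each. The 10 markers share these libraries and move together, so the 9 are not separate calls. Within a sheet, 3 rats against 3 cannot give an exact p under 0.10, so no test was made there. With permutations kept within sheets, the exact p of the treatment difference lay between 0.195 and 0.725 over the 10 markers, and between 0.445 and 0.715 without rat 6.

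The lists beside the markers also gave no call after adjustment in edgeR, and 0 of the 16 tested genes of the further choroid plexus list had an unadjusted p under 0.05, with 14 above 0 and 2 below. Their median log2 fold change was 0.25. Igfbp2, a binding protein of insulin-like growth factors, had the smallest p of them (log2 fold change 0.78, SE 0.70, adjusted p = 1 in edgeR). Msx1, a homeodomain factor, had 0.51 (SE 0.52) and F5 had 1.11 (SE 1.42). Among ependymal cilia genes 2 of 8 had an unadjusted p under 0.05, against 1.07% of all genes tested, Ccdc153 (log2 fold change 1.02, SE 0.29) and Ak7 (0.68, SE 0.25), each with an adjusted p of 1 in edgeR. Among fibroblast genes 3 of 10 did, against the same 1.07%, the transporters Slc6a13 and Slc22a6 and the collagen Col3a1, with log2 fold changes of 0.98, 1.07 and 0.94. In the thalamus and habenula list 1 of 6 did, the glutamate transporter Slc17a6 with -0.64. Genes of the other 9 lists had an unadjusted p under 0.05 in 0 cases.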

How the data were processed

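RNA of 12 hippocampi was sequenced as stranded total RNA libraries depleted of ribosomal RNA. Per the study's methods, the authors used HTStream to remove PCR duplicates and trim, and STAR 2.7.11b to align to mRatBN7.2. Several alignments per read were allowed at that step. Reads were then assigned to RefSeq exons by strand with featureCounts (Subread 2.0.1). The stated featureCounts command holds no option for counting reads with several alignments. The deposited values are raw counts per gene, without normalization, and no column of another series was present. Labels gave the groups, and the study's methods gave doses and times.

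Counts were tested with edgeR 4.0.16 in R 4.3.3 (TMM, filterByExpr with a minimum of 10, 12325 genes kept, treatment as the only term, two-sided, Benjamini-Hochberg at 0.05). A prior count of 2 was added for log2 CPM. Members were compared by exact permutation tests in Python 3.11.15 with scipy 1.17.1. Sheets were inferred from library suffixes: with each suffix once per sheet and rat numbers rising with the suffix, 4 assignments remain, and the one taken explained most of the first principal component. Gene positions are those of the deposited table (mRatBN7.2), and promoters are from RefSeq on GRCr8. The scripts were tested on simulated data. The members and lists were chosen with earlier results of these data known. All markers are named, with up to 4 genes of each other list by smallest p and the 10 genes most like Ttr; Slc12a2, Stra6, Fmod and other genes named for dividing the libraries were chosen after their values were seen. In 3 cases a listed symbol was matched to its current one (Ca12, Ca14 and Tac3). Alternatives were DESeq2 1.42.0, limma-voom (limma 3.58.1), other size factors, no filter, sheet as a covariate and leaving out each rat.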

Additional observations from a re-analysis of the deposited data

Results flagged for a closer look

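Enpp2 in blast-control rat 7 had 1258 CPM, and the next blast-control, rat 1, had 481.3 CPM. The gap to the nearest rat was 0.633 of the whole range of the 6 blast-controls, above the critical value of 0.625 of Dixon's test. Such a gap is found by chance in about 1 in 20 groups, and each of the 10 markers was looked at in both treatments. Without rat 6 the gap was 0.689 of the range of 5 rats, below the critical value of 0.710. Rat 7 also had the highest Kl, Folr1, Kcnj13 and Aqp1 of the 12 libraries.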

How the results depend on the processing

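The count of markers past an unadjusted or adjusted p of 0.05 was 0 under all 21 alternatives, of which DESeq2 without rat 6 was chosen after seeing the data. No marker had at least 10 counts in every library, so that filter gave no value. The sign of small fold changes depended on settings. Prlr became -0.048 in limma-voom. Kcnj13 became -0.043 with RLE size factors, -0.045 with upper quartile factors and -0.067 with library totals. Aqp1 became 0.34 with sheet as a covariate, and 0.33 when rat 6 was also dropped. With single rats left out, log2 fold changes ran from -0.18 to 1.44 for Kl, -0.20 to 0.94 for Folr1, -0.62 to 1.11 for Kcnj13, -0.30 to 1.40 for Otx2 and -0.97 to 0.65 for Aqp1. The median over markers ranged from -0.0065 without blast-boldine rat 12 to 1.42 without blast-control rat 7, the rat whose absence moved it most. The median pairwise r was 0.973, 0.956 on CPM in place of log2 CPM, 0.989 within sheet A and 0.969 to 0.984 with each rat left out, and it was 0.965 without rats 12 and 7. A permutation p of the pooled r with Ttr, which had been planned, was not computed, since the libraries form 2 clusters. No paired analysis was possible because the groups share no rat number. Depth limits rat 6, where 3 counts are 47.5 CPM, and the low libraries, where Kcnj13, Otx2 and Aqp1 had 0 counts in at least 1 rat.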
